A study of Mus musculus with 71 samples.

Results

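Histone-modifying enzyme genes are the genes whose products add or remove acetyl and methyl groups on histones. Here they were taken by name, as genes called Kdm, Kmt, Hdac, Sirt or Setd followed by a number and the Kat genes from Kat2 to Kat8. The rule used no measured value and gave 57 of the 21527 genes in the files, besides 1 gene that matched the pattern and is not analysed here. They comprised 11 histone deacetylases of the Hdac type, 7 sirtuins, 7 lysine acetyltransferases, 16 lysine demethylases, 7 methyltransferases of the MLL and SET1 group and 9 other SET-domain methyltransferases. The names are broader than histones, since some members act mainly on other proteins, such as Setd3, an actin histidine methyltransferase, and the mitochondrial Sirt3, Sirt4 and Sirt5.

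Male mouse embryonic stem cells (mESCs, the pluripotent cells of the early embryo) of a single line were grown in 2i/LIF medium. They were labelled for 24 h with 100 µM 4-thiouridine (s4U), a uridine analogue that is built into new RNA, and then chased with an excess of plain uridine. Cells received either 20 µM STM2457 in 0.2% DMSO or 0.2% DMSO alone from 6 h before the chase until collection at 0, 1, 1.5, 2.3, 3.5, 5.3, 8 or 12 h. Each combination had 4 libraries, except STM2457 at 3.5 h with 3, and each treatment also had 4 libraries from cells given no s4U, which makes 71 in all. No genotype was altered, and the line was the only one sampled.

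STM2457 inhibits Mettl3, the methyltransferase that writes N6-methyladenosine (m6A) on mRNA. m6A sits mostly in DRACH sequences, of which GGACT in the DNA is the preferred form, often in the last exon near the stop codon, and reader proteins can direct methylated mRNA to decay. In SLAM-seq an s4U in RNA is read as a T-to-C conversion, so the conversion rate (the share of covered T positions read as C) falls during the chase as labelled mRNA is lost. Histone acetylation is set by acetyltransferases and removed by deacetylases, whereas methylation is set by SET-domain enzymes and removed by Kdm enzymes. Embryonic stem cells are known for open, highly acetylated chromatin and for promoters that carry H3K4 and H3K27 methylation together.

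The libraries held between 4539726 and 7368244 reads (median 5726508), no replicate pair was identical, and the 4 libraries of a group are independent biological replicates by the study's methods. The summed level of the pluripotency markers lay between 1089 and 1955 CPM (reads scaled to a common library total) in all libraries, and that of the feeder fibroblast markers between 4.09 and 23.2. Most of the latter was Thy1 (median 10.9), while Postn was at 0 in all 71 libraries and Col3a1 in 69. Although the cells are labelled male, 83 of the 87 genes placed on the Y chromosome had no read in any library, and Eif2s3y had 5 reads in all, a point whose cause was not tested. One member, the H3K4 demethylase gene Kdm5d on the Y chromosome, therefore had 0 reads throughout.

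In 12 libraries the expression of all other genes stood apart. On the first principal component, computed without the members and holding 29% of the variance, they scored from -63.8 to -30.1 and the other 59 from -17.1 to 21.7. They were 9 DMSO libraries (1 at 0 h, 3 at 1 h, 2 at 1.5 h, 2 at 5.3 h and 1 without s4U) and 3 STM2457 libraries (at 1 h). Their share of multimapping reads was 26.3 to 28.8% against 22.5 to 27.97%, and their depths lay within the range of the rest. Because most were controls, the tests of read levels were repeated without these 12 libraries and with the score as a term, and calls lost or gained there are named below. The part of the split in each result was not tested beyond that. Where no share of all genes is given for such a repeat, the calls made in it have no background beside them.

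Sites with the GGACT motif are shown for some of the members whose mean read level over the chase differed below, so that the sequence in question can be seen. They were picked after their values were seen. Each line gives 21 bases on the strand of the gene in GRCm38, 5′ to 3′, with the motif in capitals. Of the matches of a gene, the one nearest the stop codon with its flanks in 1 exon was taken. How near the shown sites lie to the stop codon therefore follows in part from that choice. Of the other members called for the mean over the chase, Setd1a, Kdm5b, Hdac6 and Hdac7 had this site in the 3′ UTR. Kdm5c, Kdm6b, Hdac2, Kdm4c and Sirt4 had it in the coding part, and Sirt7 had no match.
Setd1b, chr5:123166525-123166545, plus strand, 3′ UTR in exon 17 of 17, 527 bases after the stop codon: ctgaccttGGACTaggtgctg
Sirt1, chr10:63319768-63319788, minus strand, 3′ UTR in exon 14 of 14, 856 bases after the stop codon: aatattttGGACTgctgtttt
Setd2, chr9:110550809-110550829, plus strand, coding part of exon 3 of 21: ctagggtgGGACTtttcccaa
Kat6b, chr14:21671129-21671149, plus strand, 3′ UTR in exon 17 of 17, 264 bases after the stop codon: ctctcttaGGACTctagttgg
Setd6, chr8:95718834-95718854, plus strand, 3′ UTR in exon 7 of 7, 61 bases after the stop codon: gaaatttgGGACTtttgctat
Setd7, chr3:51521213-51521233, minus strand, 3′ UTR in exon 8 of 8, 82 bases after the stop codon: acaaccagGGACTattcatgc
These letters only match the motif; whether the A is methylated was not measured in these libraries. Setd2 had 6 GGACT matches, all of them in its coding part, and the one shown lies at -3915 bases from the end of the stop codon. On the longest protein-coding transcript of each gene, read on the transcript strand only, the 55 tested members carried a median of 5 GGACT, or 1.096 per kilobase, and 94.55% carried at least 1. All 12173 tested genes with such a transcript carried a median of 3, or 1.059 per kilobase, and 92.75% carried at least 1. The members' transcripts were longer, with a median of 4577 bases against 3090. Setd1b carried 15 matches on 8857 bases and Kdm5b 12 on 8714 bases, whereas Sirt7, Hdac10 and Sirt5 carried none. At least 1 match lay in the 3′ UTR of 72.73% of the members and of 62.49% of all genes.

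Read levels differed widely between members in the control cells. QuantSeq libraries are primed at the poly(A) tail, so a read stands for an mRNA 3′ end and levels in CPM can be set side by side between genes without a length correction, within the limits of the annotated 3′ UTR windows. Of the 57 members, 55 passed the filter on low counts in at least 1 group. The other two were Kdm5d and Kdm4d, a demethylase known mainly from testis, with 49 reads in all libraries together.

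Kat7 (HBO1), an acetyltransferase of histone H3 and H4, stood highest at 0 h in DMSO. Its 4 libraries held 226.6, 382.4, 468.4 and 482.6 CPM, a mean of 390.0 ± 117.6 (SD). The lowest of them is a library that stands apart, and Kat7 split the 71 libraries along that line, with 94.02 to 307 CPM (median 217.2) in the 12 libraries and 341.9 to 782.2 (median 542.7) in the other 59. The deacetylase genes Hdac1 and Hdac2, whose products form the catalytic core of the NuRD, SIN3 and CoREST complexes, came next. Hdac1 had 214.9, 236.7, 260.9 and 259.3 CPM (242.9 ± 21.7), although 61.9% of its reads mapped to more than 1 place, so its level is less certain. Hdac2 had 124.7, 140, 111.1 and 125.2 (125.3 ± 11.8), with 0.185% of reads multimapping. Kat7 and Hdac1 overlapped between libraries at 0 h, while Hdac1 and Hdac2 did not, and below Hdac2 the order was Kat6b (103.4 ± 8.56), Setd1a (94.8 ± 14.1) and Setd5 (91.2 ± 12.2), neighbours that differ by less than their spread.

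At the low end stood class II deacetylases and a demethylase. Hdac10, a polyamine deacetylase, had 1.551, 2.050, 6.041 and 2.698 CPM in DMSO at 0 h. Hdac9, a class IIa deacetylase best known in muscle, had 0.6892, 1.262, 4.074 and 4.285, and the H3K9 and H3K27 demethylase gene Kdm7a had 3.446, 2.366, 1.826 and 1.746. These 3 overlapped one another, and at this depth a library held only a handful of their reads. In STM2457 at 0 h the highest genes read 418.3, 450.6, 583.8 and 513.2 for Kat7, 281.2, 255.1, 259.6 and 272.0 for Hdac1, and 112.6, 113.6, 116.2 and 86.93 for Hdac2. The lowest read 8.267, 8.919, 6.994 and 5.917 for Hdac10, 4.133, 1.784, 0.9992 and 1.972 for Hdac9, and 2.226, 4.459, 2.331 and 2.276 for Kdm7a. For each of these 6 genes the treated and control libraries overlapped.

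**Figure D1:**
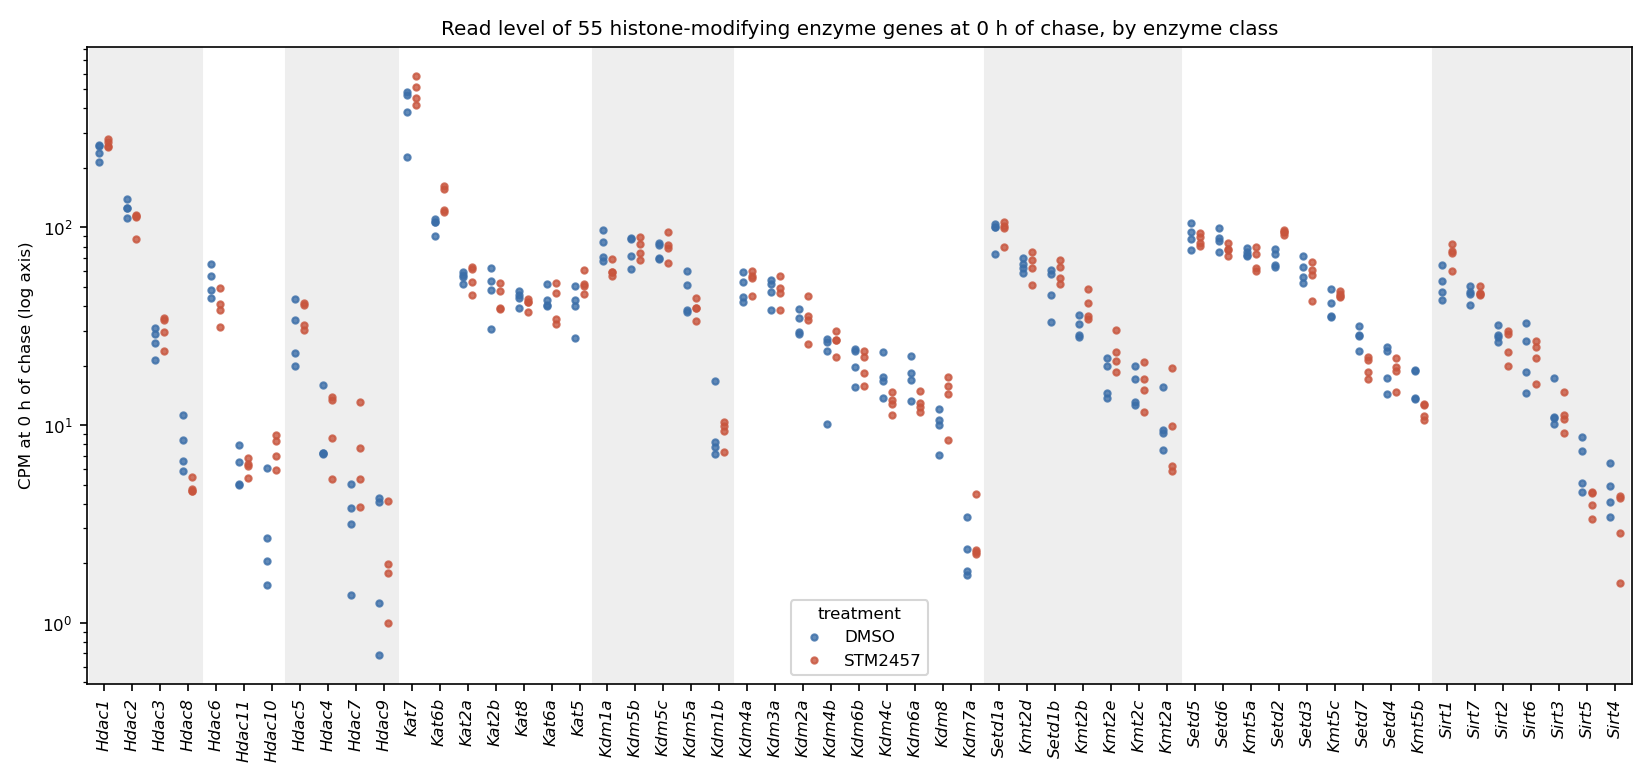
CPM (log axis) of the 55 tested genes at 0 h of chase, with a point for each library of DMSO and STM2457. Kat7 and Hdac1 sit at the top with means of 390.0 and 242.9 in DMSO, and Hdac10, Hdac9 and Kdm7a at the bottom with means near 3.

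Summed by family at 0 h in DMSO, the 7 acetyltransferases reached 726.6 ± 139.7 CPM, the 9 other SET-domain methyltransferases 488.1 ± 5.99 and the 4 class I deacetylases 403.0 ± 19.9. The H3K4 demethylases came to 290.2 ± 31.1, the MLL and SET1 methyltransferases to 283.2 ± 20.9, the H3K9, H3K27 and H3K36 demethylases to 220.8 ± 16.5 and the sirtuins to 173.2 ± 12.6. All members together made up 2693 ± 191 CPM in DMSO and 2860 ± 107 in STM2457 (n = 4 each), ranges that overlapped (2425 to 2879 and 2711 to 2963).

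After 6 h of inhibitor, at the start of the chase, 1 of the 55 members was called higher and 0 lower in STM2457 by edgeR's quasi-likelihood test at an adjusted p under 0.01, where 1.27% of all 12659 genes tested were higher and 0.411% lower. The gene was Setd2, which encodes the enzyme that trimethylates H3K36 and travels with RNA polymerase II. Setd2 read 64.44, 73.49, 77.83 and 62.84 CPM in DMSO and 95.23, 91.68, 96.58 and 94.82 in STM2457. The treated libraries all lay above the control libraries, and the log2 fold change was 0.46 ± 0.115 (SE, adjusted p = 0.00972 by edgeR). This call sits at the threshold. It was lost when the libraries that stand apart were left out (log2 fold change 0.41, edgeR adjusted p = 0.0402) and when the libraries of any single replicate of either treatment other than DMSO replicate 3 were left out, at log2 fold changes of 0.40 to 0.48. Without the libraries that stand apart, and also with the score as a term, Kat6b was called in its place, at 0.47 and 0.49. Kat6b (MORF), an acetyltransferase of histone H3, read 109.9, 90.84, 106.3 and 106.6 in DMSO and 119.7, 156.1, 161.4 and 122.4 in STM2457.

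At 12 h of chase, after 18 h of inhibitor, 2 members were higher and 0 lower (3.85% and 1.56% of all genes). Setd1b, an H3K4 methyltransferase of the SET1 group, read 23.35, 13.11, 18.70 and 28.69 CPM in DMSO and 51.02, 45.54, 27.88 and 34.79 in STM2457. The lowest treated library fell just below the highest control library, and the log2 fold change was 0.96 ± 0.212 (edgeR adjusted p = 0.000912). Sirt1, the nuclear NAD-dependent deacetylase, read 38.77, 55.05, 41.99 and 32.18 in DMSO and 81.07, 62.91, 46.56 and 69.05 in STM2457. Its groups overlapped through STM2457 replicate 3, and the log2 fold change was 0.66 ± 0.148 (edgeR adjusted p = 0.00102). Both stayed called without the libraries that stand apart (0.98 and 0.68), none of which is a 12 h library, and Kat6b (0.38) and Kdm3a (0.58), an H3K9 demethylase gene, were added. Leaving out the libraries of STM2457 replicate 1 ended both calls, leaving out DMSO replicate 2 ended that of Setd1b (0.80), and leaving out DMSO replicate 4 ended that of Sirt1 (0.58).

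The difference between the STM2457 effects at 12 h and at 0 h was tested directly and called 0 members (1.11% of all genes in either direction). At an unadjusted p under 0.05 by edgeR it held 6 of the 55 members and 1799 of all 12659 genes, and DESeq2 also called 0 members. For Setd1b the effect was larger at 12 h by 0.67 ± 0.291 on the log2 scale, at an edgeR adjusted p of 0.259, and for Sirt1 by 0.14 ± 0.207, at 0.825. Hdac10 had the lowest adjusted p, with a difference of -1.70 ± 0.514 (edgeR adjusted p = 0.0571), and it was called when DMSO replicate 3 was left out.

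In cells that never received s4U the treatment contrast called Setd1a alone among the members (1 higher and 0 lower, against 1.73% and 0.845% of all genes). The hours of treatment are not listed for these libraries, so this contrast cannot be matched to a chase time. Setd1a encodes the paralogue of Setd1b and the catalytic subunit of another COMPASS complex. It read 76.27, 78.46, 88.65 and 57.08 CPM in DMSO and 120.7, 110.9, 97.69 and 112.5 in STM2457. The groups did not overlap, and the log2 fold change was 0.56 ± 0.118 (edgeR adjusted p = 0.00104), or 0.44 without the libraries that stand apart. Leaving out the libraries of DMSO replicate 4, the lowest here, ended the call at 0.44.

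At the times in between, between 0 and 5 members were called. At 1 h Sirt1 was called (0.80 ± 0.148, 1.53% of all genes in either direction), with 36.41, 38.36, 30.71 and 44.43 CPM in DMSO and 70.86, 65.57, 58.19 and 72.00 in STM2457, groups that did not overlap. At this time 6 of the 8 libraries stand apart, and in the 2 that remain the value was 0.61 with no call. At 1.5 h 5 members were higher (8.18% of all genes in either direction, 4.16% higher): Kdm4b (1.10), Kmt2b (0.78), Kdm5c (0.70), Sirt1 (0.55) and Setd1a (0.51). Without the libraries that stand apart the members called at 1.5 h were Kdm4b and Kmt2b (0.96 each), and with the score as a term Kat7 alone was called, lower by 0.45 on the log2 scale. None was called at 2.3 h (1.61% of all genes) or at 3.5 h (1.3%). There 10 and 5 of the 55 members had an unadjusted p under 0.05 by edgeR, as did 1807 and 1744 of all 12659 genes. Sirt1 was called at 2.3 h without the libraries that stand apart (0.54) and with the score (0.55), and Setd7 (-0.92) in the former alone. At 1 h the score added Kdm5b (0.49). At 5.3 h Setd2 was called (0.58, 2.46% of all genes higher), as it was with the score (0.47) but not without the libraries that stand apart. At 8 h Kat6b (0.54) and Sirt1 (0.65) were higher and Sirt7 lower (by edgeR, 1.79% and 0.553% of all genes). Sirt7, a nucleolar deacetylase of H3K18, read 69.07, 65.18, 60.09 and 58.95 in DMSO at 8 h and 45.06, 37.77, 44.53 and 43.05 in STM2457, groups that did not overlap, and all 3 calls at 8 h stood without the libraries that stand apart and with the score.

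Averaged over the 8 chase times, which pools 32 DMSO with 31 STM2457 libraries and shares those libraries with the contrasts above, 8 members were higher and 8 lower of the 55 (14.55% each). Among all genes 13.9% were higher and 12.6% lower, or 26.5% in either direction, so the members' share lay near that of all genes. Of the 16, 11 were also called both without the libraries that stand apart (12 members called, 19.9% of all genes) and with the score as a term (17 members called, 27.1% of all genes). These 11 are the higher Sirt1, Kat6b, Setd1b, Setd2, Kdm5c, Kdm5b and Setd1a and the lower Setd7, Kdm6b, Setd6 and Hdac2. No member of the 16 changed sign. Kdm6b and Hdac7 lost their calls in most of the fits that left out the libraries of a replicate.

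**Figure D2:**
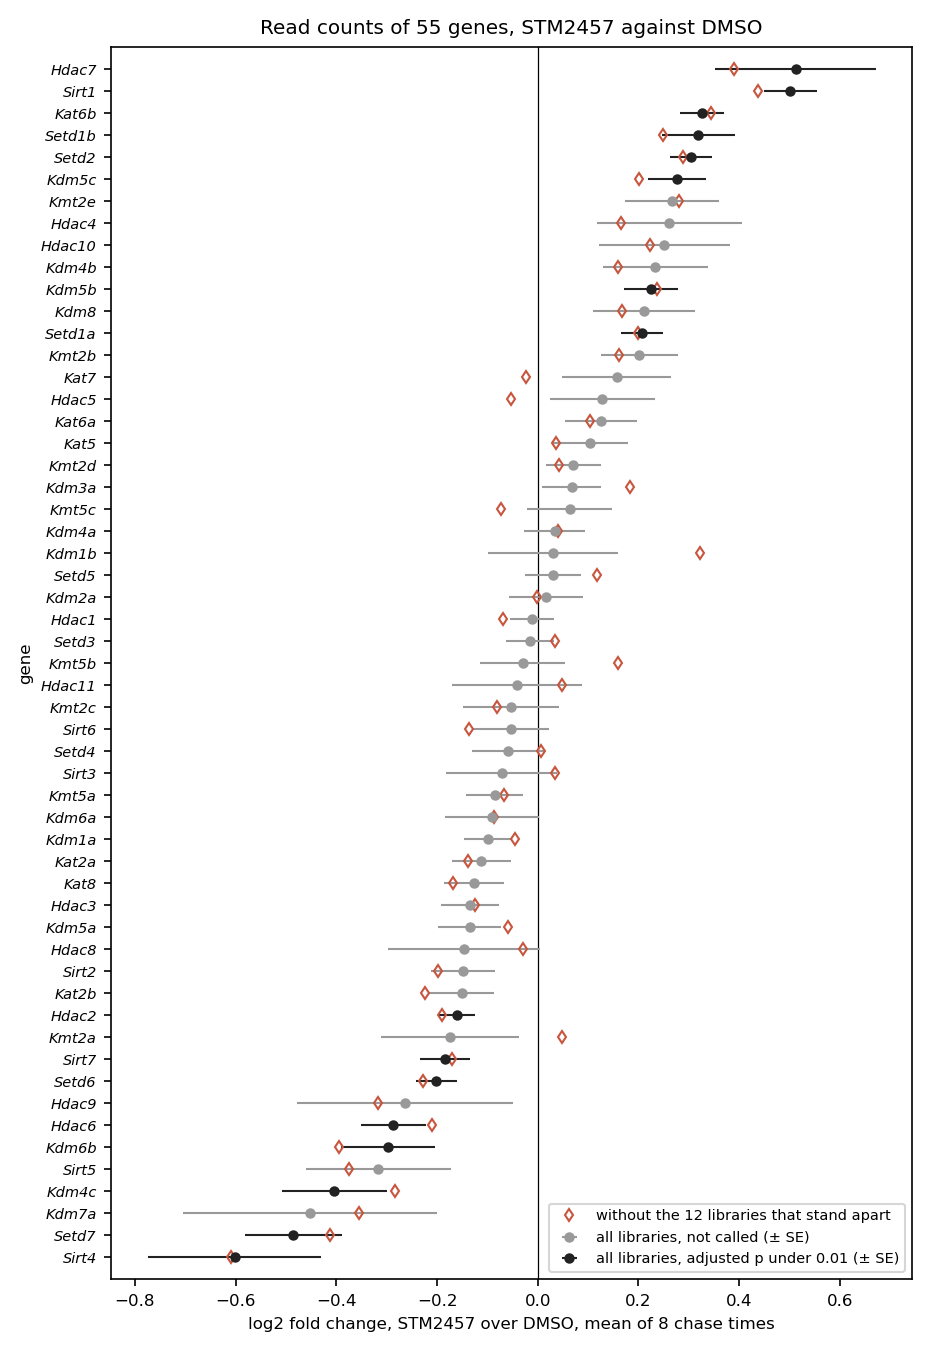
Log2 fold change of STM2457 over DMSO, averaged over the 8 chase times, for the 55 tested genes with its standard error. Beside it are the values without the 12 libraries that stand apart. Sirt1 (0.50) and Hdac7 (0.51) lie at the top and Sirt4 (-0.60) and Setd7 (-0.49) near the bottom.

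Among the deacetylases Sirt1 rose. It ranged from 30.71 to 64.59 CPM (median 44.96) in the DMSO chase libraries and from 46.56 to 82.76 (median 65.89) in the STM2457 chase libraries. Its fold change was above 0 at 8 of 8 times, the libraries did not overlap at 1, 1.5, 2.3 and 8 h, and the mean was 0.50 ± 0.0524 (edgeR adjusted p = 1.66e-12). Hdac8, which was not called, also had 4 times without overlap (0, 1.5, 5.3 and 8 h), with 4 of 8 times above 0. Times without overlap, here and for the genes below, were not counted over all genes and have no background beside them. Hdac7, a class IIa deacetylase, averaged 0.51 ± 0.159, but from levels of 0.4109 to 14.79 in DMSO and 1.083 to 15.89 in STM2457, with 5 of 8 times above 0, and it was not called without the libraries that stand apart (0.39). Hdac2 fell by 0.16 on the log2 scale, from a median of 132 (range 111.1 to 161.1) to 116.2 (86.93 to 152.6), and lay below the controls at 8 of 8 times. Hdac6, the cytoplasmic tubulin deacetylase on the X chromosome, fell by 0.29, also at 8 of 8 times, from a median of 52.47 to 44.99, though not with the score as a term (-0.14). The mitochondrial Sirt4 fell by 0.60 at a median of 4.079 against 2.553 and lost its call in both settings, and Sirt7 fell by 0.18 and lost its call without the libraries that stand apart (-0.17).

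Kat6b was the acetyltransferase that rose. It ranged from 90.84 to 166.4 CPM (median 122.6) in DMSO and from 119.7 to 199.6 (median 156.5) in STM2457, above 0 at 8 of 8 times and without overlap at 0, 2.3, 8 and 12 h (mean 0.33 ± 0.0434, edgeR adjusted p = 4.12e-09). Kat7 gave 0.16 over all libraries and was not called, -0.02 without those that stand apart, and -0.16 with a call once the score was a term. For this gene the direction therefore depended on the fit, and the call was made only with the score, a term that adjusts all libraries. Kat2a and Kat8, both histone acetyltransferases, were likewise called lower with the score as a term (-0.19 and -0.24) and not otherwise.

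Methyltransferases moved both ways. Setd2 ranged from 55.22 to 94.00 (median 71.40) in DMSO and from 70.44 to 102.8 (median 88.18) in STM2457, above 0 at 8 of 8 times and without overlap at 0, 1, 1.5 and 8 h (mean 0.30 ± 0.0413, edgeR adjusted p = 7.57e-09). Setd1a rose by a mean of 0.21 at 8 of 8 times and Setd1b by 0.32 at 7 of 8. Setd1b went from a median of 41.64 (13.11 to 61.45) to 49.98 (27.88 to 74.03) and overlapped at every time. Setd6, which methylates RelA and other non-histone proteins, fell by 0.20 at 8 of 8 times, from a median of 98.70 (75.47 to 128.6) to 84.67 (69.73 to 112.6). Setd7, an H3K4 monomethyltransferase that also acts on many non-histone proteins, fell by 0.49 at 7 of 8 times, from a median of 23.10 (14.32 to 50.67) to 17.72 (9.758 to 63.16). Setd7 is also among the members that were high in the libraries that stand apart (17.3 to 63.2 there, 9.76 to 31.9 elsewhere), and its fall was 0.41 without them and 0.29 with the score. The MLL genes Kmt2a to Kmt2e lay between -0.17 and 0.27 with none called, although Kmt2e (0.27, above 0 at 8 of 8 times) was called with the score as a term (0.37). With that term the H3K9 demethylase gene Kdm3a was called as well (0.19).

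Among the demethylases the H3K4 demethylase genes Kdm5b and Kdm5c rose by 0.23 and 0.28, each at 7 of 8 times. Kdm5c, on the X chromosome, went from a median of 71.67 (41.33 to 90) to 83.96 (40.24 to 115.2), and Kdm5b from 64.30 (48.45 to 88.63) to 70.24 (52.11 to 114.1). The H3K27 demethylase gene Kdm6b fell by 0.30, from a median of 22.48 (10.08 to 36.36) to 17.16 (6.894 to 27.27), with overlap at every time. The H3K9 and H3K36 demethylase gene Kdm4c fell by 0.40 and lost its call in both settings (-0.28 and -0.24). The remaining 39 tested members were not called and ran from -0.45 (Kdm7a) to 0.27 (Kmt2e).

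**Figure D3:**
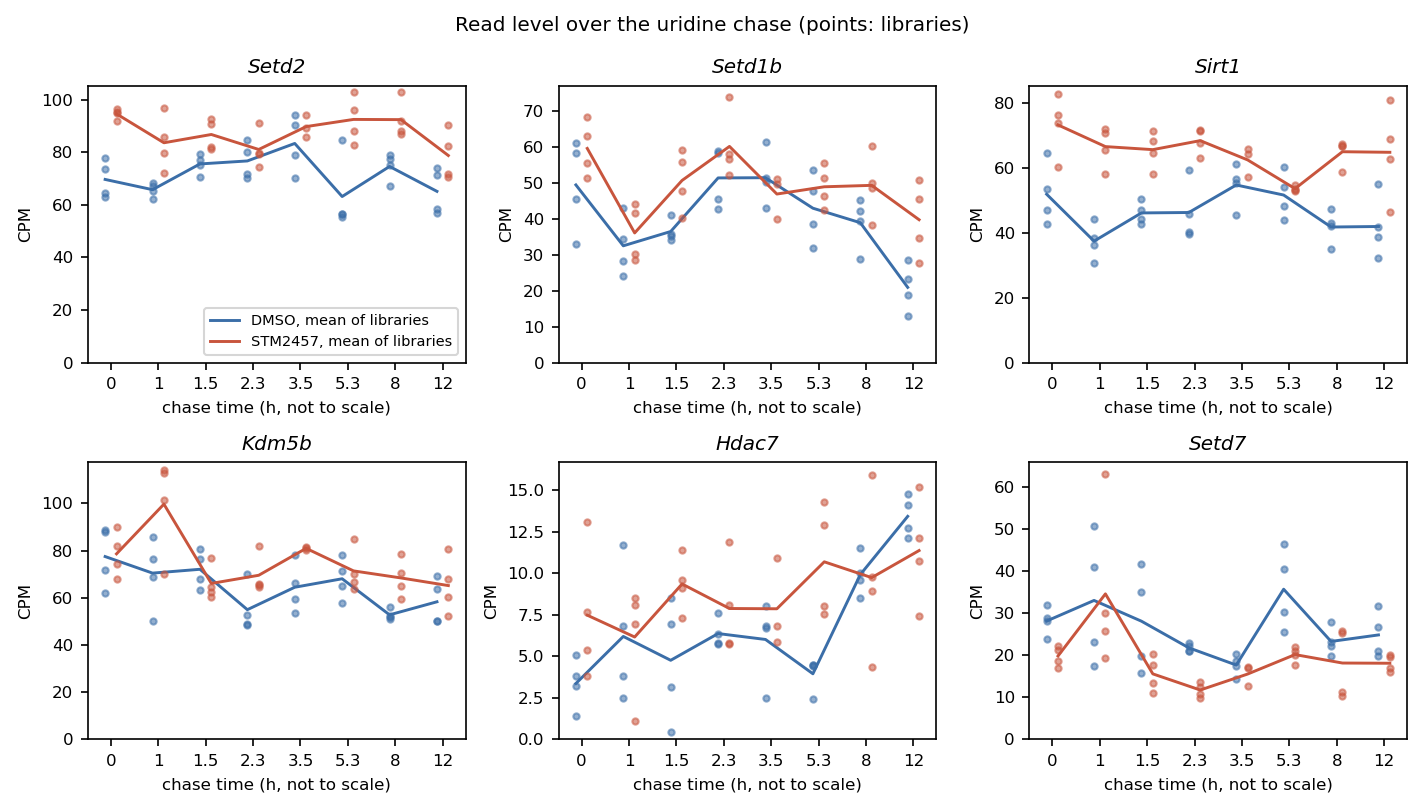
CPM at each chase time (hours, categories not to scale) for single genes, with a point per library and a line through the mean of the 3 or 4 libraries of DMSO and of STM2457. Sirt1 in STM2457 (46.56 to 82.76) runs above DMSO (30.71 to 64.59), and Setd1b drops in DMSO to 13.11 to 28.69 at 12 h.

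**Figure D4:**
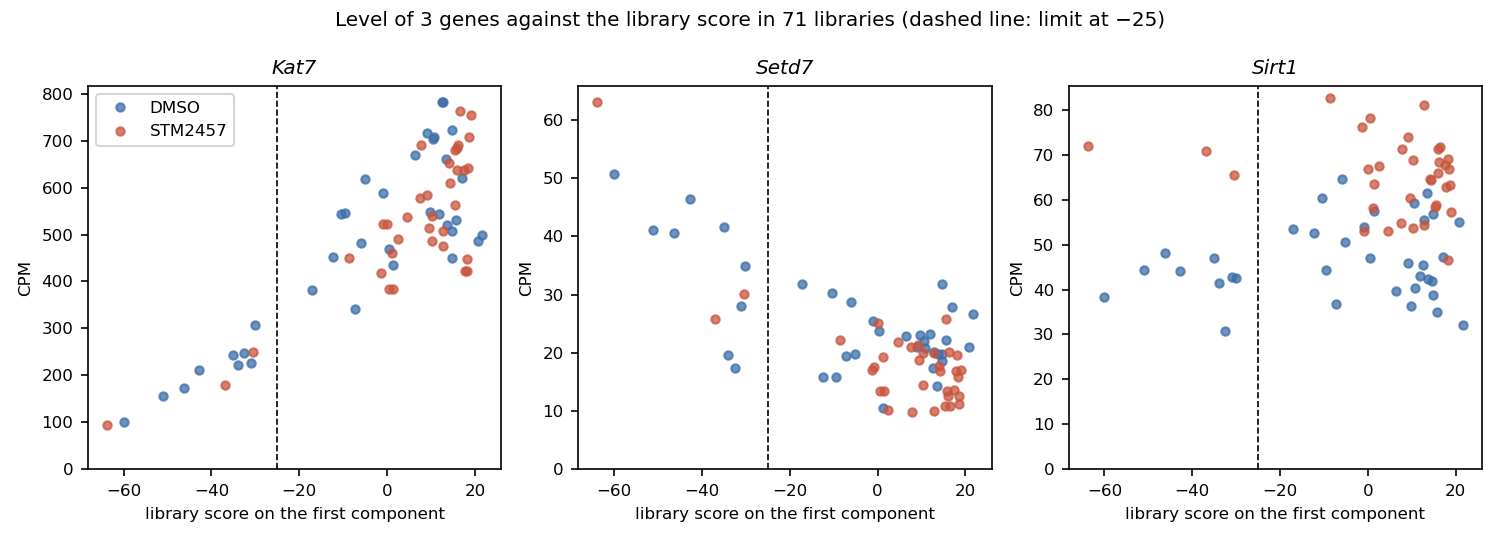
CPM of Kat7, Setd7 and Sirt1 in all 71 libraries against the score of the library on the first principal component of the other genes, coloured by treatment, with the limit of -25 dashed. Kat7 is low (94.02 to 307) in all 12 libraries left of the limit and Setd7 reaches 63.2 there, whereas the Sirt1 ranges of the treatments overlap (30.71 to 64.59 in the DMSO and 46.56 to 82.76 in the STM2457 chase libraries).

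Levels also moved over the 12 h of chase with no inhibitor. In DMSO 3 members were higher and 2 lower at 12 h than at 0 h (4.84% and 8.2% of all genes by edgeR). Setd1b had 33.08, 45.58, 58.30 and 61.10 CPM at 0 h and 23.35, 13.11, 18.70 and 28.69 at 12 h. These did not overlap, and the log2 change was -1.38 ± 0.212 (edgeR adjusted p = 7.14e-07), or -1.55 without the libraries that stand apart. Kdm5b changed from 87.87, 88.63, 61.81 and 71.57 to 69.17, 63.67, 50.06 and 50.21 (-0.55). Hdac7 changed from 1.378, 5.047, 3.793 and 3.174 to 14.10, 14.79, 12.10 and 12.69 (1.85), again without overlap. Hdac10 changed from 1.551, 2.050, 6.041 and 2.698 to 5.947, 14.04, 10.82 and 15.63 (1.75), and Setd4 from 24.81, 23.66, 17.28 and 14.44 to 43.39, 25.09, 31.17 and 41.01 (0.67). Setd1b and Hdac10 were also called with the score as a term (-1.63 and 1.401), together with Kat7 (-0.85), Kat6a (-0.82) and Kdm5c (-0.56), whereas Hdac7, Setd4 and Kdm5b were not, and Kdm5b lost its call when the libraries of any one DMSO replicate were left out. Dropping DMSO replicate 1 left 2 members called and dropping DMSO replicate 4 left 1. Without the libraries that stand apart, Hdac5 (0.57) and Kmt5c (0.60) were also called higher, and Kdm3a (-0.54), Kmt5a (-0.50) and Sirt1 (-0.55) lower. The calls added in these repeats have no share of all genes beside them.

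Under STM2457 the same interval called 0 members (1.69% of all genes higher and 3.03% lower). At an unadjusted p under 0.05 by edgeR it held 8 of the 55 members and 2888 of all 12659 genes. Setd1b changed by -0.71 ± 0.202 there, at an edgeR adjusted p of 0.0140, and was called without the libraries that stand apart (-0.70). With the score as a term 6 members were called, all lower (6.56% of all genes lower), namely Setd1b (-0.83), Kat7 (-0.77), Kat5 (-0.69), Setd2 (-0.44), Hdac1 (-0.34) and Kdm8 (-1.002). The DMSO and STM2457 intervals were compared in the interaction test above, in which no member was called.

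The label itself was followed through the conversion rate. Pooled over the members, the rate at 0 h was 1.395% ± 0.061 in DMSO and 1.26% ± 0.038 in STM2457 (SD, n = 4 each), and these libraries did not overlap (1.336 to 1.457% and 1.219 to 1.308%). Over all genes it was 1.37% ± 0.067 and 1.28% ± 0.073. It fell to 0.798% ± 0.016 and 0.750% ± 0.0030 at 3.5 h, to 0.304% ± 0.021 and 0.292% ± 0.025 at 5.3 h and to 0.135% ± 0.022 and 0.118% ± 0.0094 at 12 h. Without s4U it was 0.060% ± 0.012 and 0.067% ± 0.0053. The step from 3.5 to 5.3 h was also present over all genes, from 1.01% to 0.534% in DMSO.

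Half-lives were fitted by a single exponential to the background-subtracted rates relative to 0 h, and 46 of the 57 members met every limit in both treatments. Of the other 11, 8 had a residual standard error above 0.3, 1 a half-life outside 0.67 to 18 h, 1 too few covered T positions and 1 lay on the Y chromosome. The median member had a half-life of 2.78 h under DMSO and of 2.90 h with the inhibitor, shorter than the 3.19 and 3.45 h of all 7393 transcripts, a difference that was not tested. In DMSO 29 of the 46 had a half-life under 3 h and 5 one over 5 h.

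By family the class I deacetylases had the longest half-lives, with a median of 4.98 h in DMSO (4.26 to 6.08 h, 4 genes). This median is uncertain, since it rests in part on Hdac8 (5.18 h). The DMSO series of Hdac8 read 1.78, 5.66 and 7.02 h with 1 above 18 h. The other genes of that family were Hdac1 (6.08 h), Hdac2 (4.78 h) and Hdac3 (4.26 h). The MLL and SET1 methyltransferases had a median of 2.61 h (7 genes), the acetyltransferases 2.75 h (7 genes) and the H3K9, H3K27 and H3K36 demethylases 2.37 h (1.57 to 2.82 h, 8 genes). The longest half-lives in DMSO were those of Sirt2, a cytoplasmic tubulin deacetylase (7.74 h), Hdac5, a class IIa deacetylase (6.61 h) and Hdac1 (6.08 h). Hdac1 repeated closely in DMSO, with 6.07, 5.94, 6.28 and 6.02 h in the 4 replicate series. Its STM2457 series read 5.26, 6.41, 4.64 and 4.84 h and overlapped these. Since 61.9% of the Hdac1 reads mapped to more than 1 place, its half-life is less certain too. The 4 DMSO series of Sirt2 ran from 2.85 to 15.8 h, so its place at the top is uncertain. The shortest half-lives were those of Kmt2c, the H3K4 monomethyltransferase MLL3 (1.38 h), Hdac4 (1.44 h) and the H3K36 demethylase gene Kdm2a (1.57 h). Their DMSO series read 1.68, 0.996, 0.936 and 2.61 h for Kmt2c, 2.63, 0.878, 0.655 and 1.91 h for Hdac4, and 1.297, 2.93, 1.36 and 1.28 h for Kdm2a, and so overlapped one another.

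**Figure D5:**
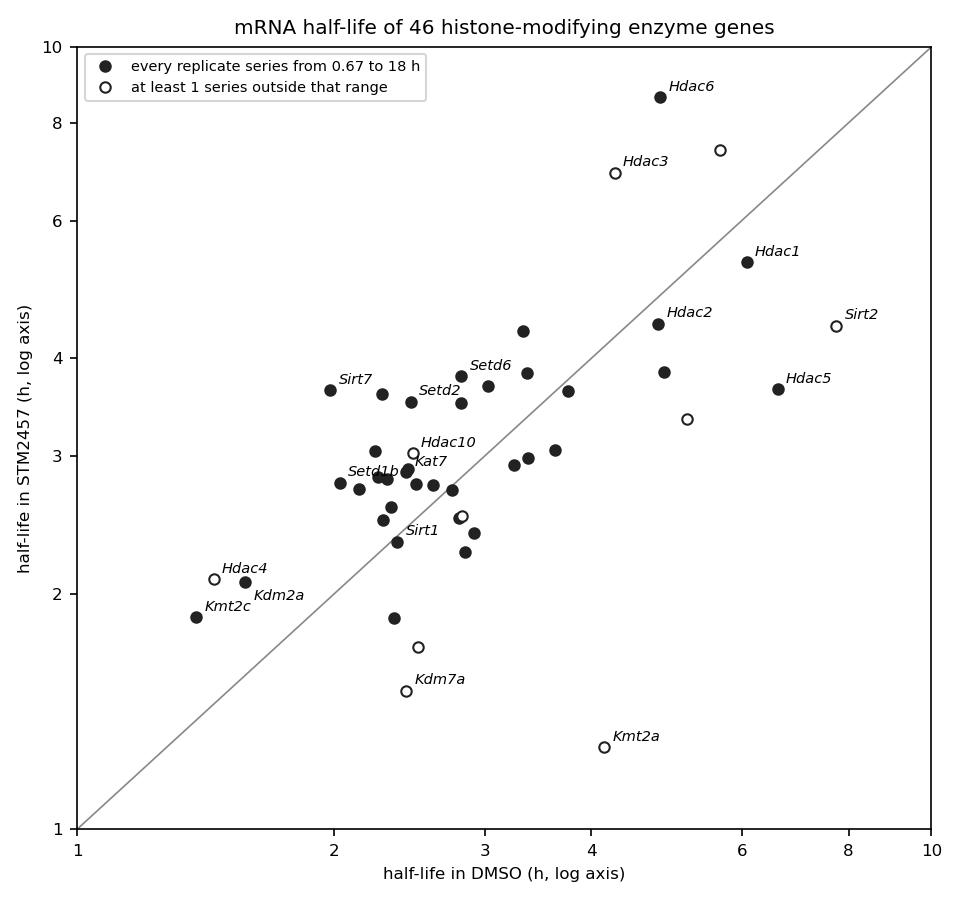
Half-life in STM2457 against half-life in DMSO (h, log axes) of the 46 genes, with the line of equal values; filled points had all 8 replicate series between 0.67 and 18 h. Setd6, Hdac6, Sirt7 and Hdac3 lie above the line and Hdac5, Sirt2 and Kmt2a below it.

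With STM2457 26 of the 46 members had a longer half-life (56.5%), against 56.7% of all transcripts, and the median log2 ratio was 0.148 against 0.069. Without the libraries that stand apart it was 0.319 against 0.167. The largest rises in the pooled fit were those of Sirt7 (1.98 to 3.64 h), Hdac6 (4.82 to 8.62 h) and the class I deacetylase gene Hdac3 (4.26 to 6.91 h). The largest falls were those of the MLL1 gene Kmt2a (4.14 to 1.27 h), Hdac5 (6.61 to 3.65 h) and Sirt2 (7.74 to 4.40 h). By replicate series Sirt7 read 2.32, 2.75, 3.00 and 1.08 h in DMSO and 2.39, 5.22, 5.45 and 3.62 h in STM2457. Hdac6 read 15.9, 3.34, 5.23 and 3.499 h and then 5.80, 17.7, 11.7 and 6.00 h. Hdac3 read 2.43, 4.63, 5.78 and 5.66 h in DMSO, and in STM2457 1 series lay above 18 h beside 6.58, 6.81 and 4.14 h. In each of these 3 the series of the treatments overlapped. The STM2457 series of Sirt2 likewise ranged beyond 18 h, and for Kmt2a a series lay outside the limits in each treatment, so neither entered the test.

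Among the members with all 8 series in range, Hdac5 and Setd6 had series that did not overlap. How many of all transcripts did so was not counted, so this count has no background beside it. Hdac5 was shorter in STM2457 (7.69, 7.52, 4.90 and 7.87 h against 3.67, 4.66, 3.98 and 2.16 h) and Setd6 longer (2.26, 2.98, 2.98 and 3.005 h against 5.18, 3.502, 3.19 and 3.71 h). Hdac10, with 2 DMSO series (0.753 and 1.02 h) and 3 STM2457 series (2.00, 2.84 and 1.22 h) in range, did not overlap either and did not enter the test. Over the 36 members with all 8 series in range, limma called 0 at an adjusted p under 0.05, as it did over all 5756 transcripts (0%). By limma 2 members and 407 transcripts had an unadjusted p under 0.05. Hdac5 gave the lowest p of the members, with a log2 ratio of -0.98 ± 0.301 (limma adjusted p = 0.667), followed by Sirt7 (0.89 ± 0.394, limma adjusted p = 0.699). The median over these 36 was 2.82 ± 0.154 h in the DMSO series and 3.24 ± 0.130 h in the STM2457 series (SD, n = 4), and it ranged from 2.67 to 2.99 h and from 3.05 to 3.32 h. Between same-numbered series the median log2 ratio of these 36 was 0.062 ± 0.075 (0.030, 0.173, 0.035 and 0.0090). Over all 5756 transcripts the medians were 3.41 ± 0.078 h and 3.57 ± 0.250 h, and the median log2 ratio was 0.038 ± 0.128.

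A rate relative to 0 h inherits the 0 h value. Of the 46 members, 29 had a lower 0 h rate in STM2457, and these were 23 of the 26 with the longer half-life but 6 of the 20 with the shorter one. The median rate at 0 h was 1.297% in DMSO and 1.216% in STM2457 once the background was subtracted. The part of the starting rate in the half-life ratios was not tested, and these counts were made for the members only, not over all transcripts. In the fit of label loss from 0 to 5.3 h, each of 47 libraries is a point and no value is divided by 0 h. In it limma called 0 of 53 members (0.209% of 10060 transcripts). At an unadjusted p under 0.05 by limma it held 5 members and 1090 transcripts. Extending the fit to 8 h called 1 member, Kdm5b, with slower loss in STM2457, and 3.05% of the transcripts. In DMSO the mean rate of Kdm5b was -0.43% of its 0 h value at 5.3 h and -4.47% at 8 h, once the background was subtracted. In STM2457 it was 10.1% and 9.25%. Rates below the background were set to 0 in this fit, so the call rests in part on such values.

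For members whose level rose or fell over the chase, the half-lives can be set beside the levels. Setd2 went from 2.46 to 3.52 h (series 2.52, 2.304, 2.63 and 2.42 h against 2.44, 3.51, 5.04 and 3.28 h, which overlapped) and Setd1b from 2.03 to 2.77 h (series 2.16, 2.14, 2.09 and 1.73 h against 2.76, 4.38, 4.23 and 1.29 h). Sirt1, which rose at every time, had 2.37 h in DMSO and 2.33 h in STM2457 (2.69, 2.49, 2.45 and 1.91 h against 2.03, 2.33, 1.93 and 3.70 h). The conversion rate of Sirt1 at 0 h was 1.36% ± 0.155 in DMSO and 1.37% ± 0.244 in STM2457. Kat6b (2.14 to 2.72 h), Kdm5b (3.03 to 3.68 h) and Kdm5c (3.36 to 3.83 h) rose in level and had the longer half-life in STM2457. Setd1a rose and had the shorter one (2.91 to 2.39 h). Among members whose level fell, the half-life was longer for Setd6 (2.82 to 3.80 h), Sirt7 (1.98 to 3.64 h), Hdac6 (4.82 to 8.62 h) and Kdm4c (2.81 to 3.51 h). It was shorter for Hdac2 (4.78 to 4.43 h). Hdac7, Kdm6b, Setd7 and Sirt4 had no half-life within the limits.

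The 8 members that were higher over the chase carried a median of 6 GGACT per transcript (1.142 per kilobase) and all had at least 1, while the 8 that were lower carried 3.5 (1.047 per kilobase) and 87.5% had at least 1. In the 3′ UTR 87.5% of the former and 50% of the latter had a match. The transcripts of the former were also longer, at a median of 7093 against 3696 bases, and with 8 genes on each side these values are a description only.

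Enzymes of these families work in multisubunit complexes, and 96 partner genes from lists of such complexes were tested in the same fit. At 0 h 2 partners were higher and 0 lower by edgeR (1.27% and 0.411% of all genes), the SAGA scaffold gene Taf5l (0.63) and the SIN3 subunit gene Ing2 (0.63). At 12 h 2 were higher and 1 lower (3.85% and 1.56% of all genes). Jade1, a scaffold of the Kat7 complexes, was higher (0.69 ± 0.0960, edgeR adjusted p = 1.01e-07), as was Taf5l (0.43), and the COMPASS core gene Ash2l was lower (-0.28). Without s4U 3 were higher and 0 lower (1.73% and 0.845% of all genes), Jade2 (0.93), the coactivator gene Ncoa3 (0.54) and Taf5l (0.47). Averaged over the chase 13 of the 96 partners were higher and 14 lower by edgeR, where 13.9% of all genes were higher and 12.6% lower, so their share too lay near that of all genes. Among them were Crebbp, the acetyltransferase CBP (0.45), Jade2 (0.66) and Jade1 (0.38) higher and Ash2l (-0.25), the NuRD subunit gene Rbbp7 (-0.23) and the acetyltransferase gene Hat1 (-0.39) lower. Against that background of 26.5% in either direction, the scaffold list with the Kat6, Kat7 and Kat8 partners had 3 higher and 0 lower of 15, the SAGA and ATAC list 3 higher and 4 lower of 18, and the COMPASS list 1 higher and 2 lower of 11. The NuRD list had 1 higher and 2 lower of 11, the SIN3 list 2 and 2 of 12, the CoREST and NCoR list 0 and 2 of 11, the NuA4 list 2 and 1 of 13, and the other acetyltransferases 1 and 1 of 5. Between 0 and 12 h in DMSO 1 partner was higher and 10 lower (4.84% and 8.2% of all genes), Jade1 by -1.01 ± 0.0962 (edgeR adjusted p = 6.30e-13). Of these 46 calls of partners, 35 were also made without the libraries that stand apart and 32 with the score as a term. At 0 h Ing2 lost its call without those libraries (0.62, edgeR adjusted p = 0.0107), and Ncoa3 without s4U lost it in both settings (0.48 and 0.42). The other calls at 0 h, at 12 h and without s4U stood in both, as did those of Crebbp, Jade1, Jade2, Ash2l, Rbbp7 and Hat1 for the mean over the chase. The partners lower from 0 to 12 h in DMSO numbered 10 in the main fit, 10 without the libraries that stand apart and 15 with the score as a term. The counts of these 2 repeats have no share of all genes beside them, so they are not read as results about the partners.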

How the data were processed

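Poly(A)-primed 3′ end libraries (QuantSeq) of iodoacetamide-treated total RNA, sequenced as 84-nt single reads, were processed by the authors with SLAM-DUNK 0.4.3: up to 100 positions per read were kept, positions variable in unlabelled libraries were masked, and reads were counted on 3′ UTR windows filtered to GENCODE M23, with windows collapsed per gene. The submitters' processing notes name GRCm38.p6 and FastQC 0.11.8. The deposited files give, per gene and library, read counts (raw), CPM (scaled to the library total by the authors) and the conversion rate as a fraction; molecular identifiers are not described, so duplicates from 15 PCR cycles remain. The labels only number the time points (T0 to T7); the hours were matched in order to those of the study's scheme of the experiment and its source data, and half-lives scale with them.

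The members and gene lists were chosen with earlier results of these data known. Read counts were compared with edgeR 4.0.16 (R 4.3.3; glmQLFit, TMM, filterByExpr, Benjamini-Hochberg over 12659 genes, adjusted p under 0.01) in 1 fit of the 18 groups of treatment and time. Half-lives followed the study: mean rate minus the unlabelled rate, divided by the 0 h value, exponential fit, with mean T coverage above 100, residual standard error up to 0.3 and 0.67 to 18 h. Replicate series and label loss (pseudocount 0.02%) were tested with limma 3.58.1 at an adjusted p under 0.05. GGACT was searched on 1 transcript per gene from the GENCODE M21 basic annotation of GRCm38. Scripts were tested on simulated data. The library score is the first principal component of log2 CPM over 9283 genes with a mean CPM over 5; a score under -25 sets libraries apart, a limit chosen after seeing the scores. Named with values per library were members called at 0 or 12 h, the 3 highest and 3 lowest levels, the 3 shortest and longest half-lives and the 3 largest rises and falls in half-life. Members named for the mean over the chase, for cells without s4U, for the change over the chase or for series without overlap fall outside that rule and were chosen after their values were seen. Alternatives were DESeq2 1.42.0, other scalings, filters and limits, a replicate block, each replicate left out, half-lives corrected for growth (doubling in 13 h) and, added after seeing the data, the libraries that stand apart left out or the score as a term. Read counts of same-numbered DMSO and STM2457 libraries of a time point did not pair (mean correlation 0.01 over 35 pairs, 1 above 0.1). Same-numbered libraries of different times were not compared. Over all genes replicate 1 had the lowest conversion rate of its DMSO group at each time from 0 to 3.5 h, but not at 5.3, 8 or 12 h. In STM2457 it was lowest at 0, 1.5, 2.3 and 8 h and not at the other times.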

Additional observations from a re-analysis of the deposited data

Results flagged for a closer look

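In 9 of 93 groups of 4 libraries or series checked, 1 value lay far from the other 3, as the ratio of its gap to the whole range exceeded Dixon's 95% critical value, which chance gives in about 1 of 20 groups. For read levels the ratio was 0.842 for Setd2 in DMSO without s4U, 0.874 and 0.892 for Hdac2 in STM2457 at 0 h and at 12 h, 0.87 for Hdac9 in STM2457 without s4U, 0.953 for Kdm7a in STM2457 at 0 h and 0.908 for Setd1a in DMSO at 0 h. The outlying library of Setd1a at 0 h, replicate 1 with 73.74 CPM against 100.9 to 103.6, is one that stands apart. For Hdac2 the outlying value was 86.93 against 112.6 to 116.2 at 0 h, and 134.9 against 121.3 to 122.8 at 12 h. For half-lives in the DMSO series the ratio was 0.954 for Kdm2a (2.93 h against 1.28 to 1.36 h), 0.882 for Hdac5 (4.90 h against 7.52 to 7.87 h) and 0.85 for Hdac6 (15.9 h against 3.34 to 5.23 h).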

How the results depend on the processing

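Of 450 fold changes of 25 calls of members recomputed under the alternatives, 381 kept the call, 69 lost it and 0 changed direction; the causes were not tested. At 0 h the 1 member called became 4 at an adjusted p under 0.05 and 0 with DESeq2 size factors, total reads only, no filter, uniquely mapping reads or a fit of the compared groups alone. Leaving out 1 replicate gave 0 to 2. The counts of called members here and below are given without the share of all genes in the same setting. At 12 h 2 became 4 at 0.05 and 4 without the libraries that stand apart, and 0 to 3 over replicates. Without s4U 1 became 2 at 0.05 and 0 in a fit of those groups alone, and 0 to 3 over replicates. From 0 to 12 h in DMSO 5 became 13 at 0.05, 10 without the libraries that stand apart and 1 to 6 over replicates; with total reads only the median of all genes moved from 0.04 to 0.178. The mean over the chase, with 16 called, gave 11 to 18, the interaction, with 0, gave 0 to 1, the half-life test gave 0 throughout, and label loss became 1 from 0 to 8 h. The labels do not tie same-numbered replicates to each other. With a replicate block the counts were 1, 2, 1, 16, 4, 0, 0 and 0 for 0 h, 12 h, no s4U, the chase mean, the DMSO interval, the interaction, half-lives and label loss, against 1, 2, 1, 16, 5, 0, 0 and 0. The correlations of half-life series with the same number were 0.0056 to 0.0268. The 46 members with a half-life became 14 at a residual error up to 0.15 and 40 to 44 over replicates. The DMSO median of 2.775 h became 2.467 at that limit, 2.609 without 3.5 h, 3.528 with growth dilution subtracted and 2.5 without the libraries that stand apart (2.558 to 2.811 over replicates), and the STM2457 median of 2.9 h became 3.733 with growth dilution and 3.079 without those libraries (2.749 to 3.101 over replicates). The median log2 ratio of 0.148 became 0.319 without those libraries (0.069 and 0.167 over all transcripts). The limma half-life test was not run without them, since a DMSO series then lacks 0 h, nor on pooled conversions. Depth limits the low members: Hdac9 and Kdm7a had a few reads per library.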

Other observations

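Several members were lower in the libraries that stand apart. Hdac5 read 9.95 to 23.3 CPM in those 12 libraries and 23.2 to 69.3 in the other 59, Kdm4b 7.94 to 21.8 against 16.8 to 48.96, and the H4K20 methyltransferase gene Kmt5c 20.7 to 35.7 against 34.1 to 85.6. Hdac1 read 165.1 to 232.1 against 209.7 to 332.4. Beside the 61.9% of Hdac1, the share of multimapping reads was 39.8% for Setd3 and 23.03% for Kat6a, so the levels of these genes rest in part on reads that fit more than 1 place.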
